A study of Rattus norvegicus with 16 samples.

Results

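Dithiolethiones are sulfur-containing ring compounds that raise the liver's detoxifying enzymes. The livers of rats given D3T, whose dithiolethione ring carries no substituent, were set against the livers of rats given either of 2 compounds with substituted rings. These were oltipraz (OLT), whose ring bears a pyrazinyl and a methyl substituent, and TBD, whose ring bears a tert-butyl substituent. The comparison was made on all probe sets, as the mean of the 4 D3T arrays minus the average of the OLT and TBD group means (8 arrays), so 12 of the 16 arrays of the study entered the difference. The other 4 arrays came from rats given vehicle, a saturated sucrose solution. The animals were male Fischer F344 rats of 80 to 100 g, 6 weeks old on arrival, singly housed and randomly assigned to the groups. Each compound was given by gavage at 0.3 mmol/kg, in 3 doses spread over 5 days, with the liver collected 24 h after the final dose. The titles of the control arrays say "without treatment", whereas the study design gives them vehicle. The arrays were single-colour Affymetrix rat arrays hybridised with biotin-labelled total RNA from whole liver, 1 array per animal, and all values are on the log2 scale. A difference of 1 on that scale is a 2-fold difference in signal.

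Several transcription factors govern the genes described here. NRF2 is released from its inhibitor KEAP1 by reactive compounds such as dithiolethiones and switches on glutathione transferases, quinone reductases and aldehyde reductases through antioxidant response elements. PXR and CAR are nuclear receptors that sense drugs and bile acids and switch on cytochromes P450 of the 2B and 3A families, glucuronosyltransferases and exporters. SREBP-2 is held in the endoplasmic reticulum when sterols are plentiful and otherwise switches on the enzymes of cholesterol synthesis.

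The genes that lay furthest on either side of the comparison were Gstp1, the pi-class glutathione transferase, which was 8.84-fold higher with D3T, and Msmo1, a sterol-demethylating enzyme of cholesterol synthesis, which was 5.83-fold lower. The 2 Cyp3a genes Cyp3a2 and Cyp3a23-3a1, which encode drug-oxidising cytochromes P450, were also lower with D3T. The promoters of these 3 glutathione transferase and Cyp3a genes are shown because they carry letters that bear on the regulators named above. They are the 250 bases before the annotated start, from RefSeq on assembly GRCr8, 5′ to 3′ on the gene's strand. In Gstp1 (chr1:210769706-210769955, minus strand) the capitals mark the antioxidant response element core TGACNNNGC, which begins at position -61 relative to the start. In Cyp3a2 (chr12:14343858-14344107, minus strand) and Cyp3a23-3a1 (chr12:14398804-14399053, minus strand) the first capitals mark a direct repeat of the nuclear receptor hexamer AGTTCA with 3 bases between its copies, read on the opposite strand. It begins at position -131 in Cyp3a2 and -144 in Cyp3a23-3a1, and the later capitals in Cyp3a23-3a1 mark the E-box CACGTG.
Gstp1: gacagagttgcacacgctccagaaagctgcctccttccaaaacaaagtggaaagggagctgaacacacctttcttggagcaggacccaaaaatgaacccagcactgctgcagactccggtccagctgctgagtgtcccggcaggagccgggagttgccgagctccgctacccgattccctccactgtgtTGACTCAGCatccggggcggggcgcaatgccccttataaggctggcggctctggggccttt
Cyp3a2: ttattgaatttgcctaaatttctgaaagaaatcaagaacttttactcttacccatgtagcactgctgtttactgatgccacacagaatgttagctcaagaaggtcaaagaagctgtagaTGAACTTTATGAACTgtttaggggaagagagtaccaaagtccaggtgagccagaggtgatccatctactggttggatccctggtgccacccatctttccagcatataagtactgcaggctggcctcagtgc
Cyp3a23-3a1: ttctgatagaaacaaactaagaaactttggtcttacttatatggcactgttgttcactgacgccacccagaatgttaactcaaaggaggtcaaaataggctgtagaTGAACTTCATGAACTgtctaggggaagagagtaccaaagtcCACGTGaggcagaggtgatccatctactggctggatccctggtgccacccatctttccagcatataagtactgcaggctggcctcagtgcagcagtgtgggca
Both strands were searched, over the 300 bases from 250 before to 50 after each start. The direct repeat was chosen for the search after the values were seen. It occurred in 2 of 27457 promoters (0.00728%), those of the 2 Cyp3a genes, which share 251 of 281 aligned bases (89.3%) and so are not independent. The single hexamer AGTTCA occurred in 14.4% of all promoters, and in 6 of the 17 promoters found for tested PXR and CAR targets (35.3%). The antioxidant response element core occurred in 12.2% of all promoters, in 9 of 23 promoters of tested NRF2 targets (39.1%), in 2 of 14 of the genes higher with D3T (14.3%) and in 3 of 21 of those lower (14.3%). The sterol response element letters CACCCCAC occurred in 2.57% of all promoters and in 1 of 12 promoters of tested cholesterol synthesis genes (8.33%), that of Ebp. Among those 12 promoters 4 held the antioxidant response element core (33.3%) and 4 the xenobiotic response element core TNGCGTG (33.3%), which occurred in 5.12% of all promoters and in 0 of the 23 of NRF2 targets. The promoters shown were picked for their matches. Those of Msmo1 and of Ugt2b1, Cyp2b2, Nqo1 and Akr7a3, described below, held no direct repeat, E-box or response element core of those searched. A match is a description of letters, and overlap between these motifs was allowed.

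Of 8740 probe sets, 5323 were bright enough to test (above the 40th percentile of their array on at least 4 of the 16 arrays), and 3417 were not tested. The p-values come from limma with Benjamini-Hochberg adjustment over all tested probe sets, and a probe set was called at an adjusted p under 0.05. The arrays had medians between 3.27 and 3.58, and their correlations within a group lay between 0.983 and 0.997. OLT replicate 1 and TBD replicate 4 stood lowest on the second principal component (-21.67 and -21.79, 13% of the variance). Scan dates were not used here, and no batch was tested. Each array came from a separate animal, so p-values measure the spread between animals and arrays together. Because the tissue was whole liver, fewer cells of a type and less RNA per cell cannot be told apart.

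D3T differed from the mean of the substituted compounds at 85 of 5323 probe sets (1.6%), of which 36 were higher and 49 lower with D3T. A further group of probe sets differed only before adjustment, since 778 had an unadjusted p under 0.05. Of the 85, 39 differed at least 2-fold, and at 64 the 4 D3T arrays lay beyond all 8 OLT and TBD arrays, against 145 of all tested probe sets (2.72%). The median difference over all tested probe sets was 0.07, so the direction of small differences depends on the scaling. With each array's 40th percentile added as covariate, 361 probe sets were called and 80.3% of them were higher with D3T, against 42.4% in the fit without it. With array weights 361 were called too, 69.3% of them higher. In that fit vehicle replicate 3, which does not enter the difference, had a weight of 19.4, against 0.266 to 2.62 for the other arrays. How far the count depends on that array or on the weights of the compound arrays was not tested. Without D3T replicate 1, 2 or 3 the count was 53, 49 and 48, and without OLT replicate 1 and TBD replicate 4 together it was 122.

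Taking 1 probe set per gene, the brightest, 41 of 3104 genes were called. D3T was higher at 16 (0.515%) and lower at 25 (0.805%), and the median difference over all genes was 0.06. The fold differences were larger on the lower side: 13 of the 25 lower genes and 3 of the 16 higher genes differed at least 2-fold, with a median of 2.04-fold and 1.68-fold. Without D3T replicate 1, 2 or 3 the number of genes called was 23, 24 and 23, and without OLT replicate 1 and TBD replicate 4 together it was 64.

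**Figure D1:**
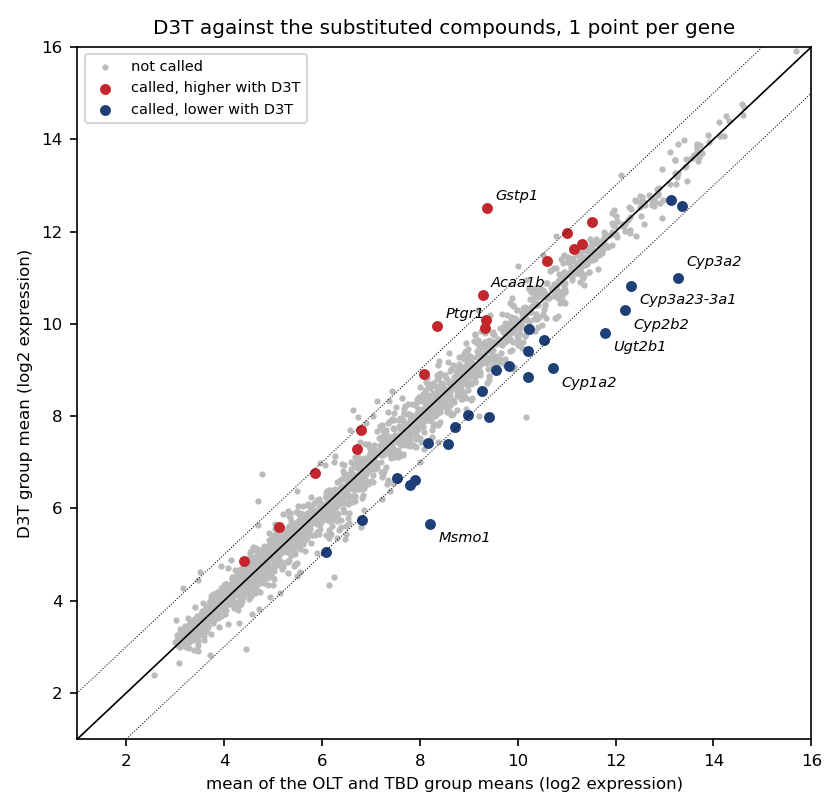
Group mean of the 4 D3T arrays (vertical axis, log2 expression) against the average of the OLT and TBD group means (horizontal axis, log2 expression) for 3104 genes. The 16 genes called higher with D3T are red, the 25 called lower are dark blue, the solid line is equality and the dotted lines mark 2-fold differences. Gstp1 lies furthest above the line and Msmo1 furthest below it among the called genes.

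A difference from the mean of 2 compounds can come from 1 of them, so the 3 pairs of compounds were also compared at their common dose and time, with p-values adjusted over all probe sets of the 3 pairs together. D3T differed from OLT at 41 probe sets (0.77%) and from TBD at 30 (0.564%), whereas TBD and OLT differed at 4 (0.0751%). In the pair of substituted compounds 145 probe sets had an unadjusted p under 0.05, against 656 for D3T and OLT and 534 for D3T and TBD. At 21 probe sets (0.395%) D3T differed from the mean and from each of the 2 compounds in the same direction, 2 of them higher and 19 lower. Of the 85, 19 passed in the pair with OLT alone, 8 in the pair with TBD alone and 37 in neither pair, and at none of the 85 did the 2 pair differences have opposite signs. The count apart from both was 8, 11, 10 and 10 without D3T replicate 1, 2, 3 and 4, 13 and 9 without OLT replicate 1 and 4, and 11 without TBD replicate 2. The count against OLT was 21, 26, 26 and 22 without the 4 D3T arrays in turn and 22 without OLT replicate 4. The count against TBD was 15, 16, 17 and 19 without the D3T arrays and 19 without TBD replicate 3. TBD and OLT differed at 7 probe sets without TBD replicate 1 and at 13 without TBD replicate 4.

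By gene, D3T stood apart from both compounds at 9 genes, 8 lower (Msmo1, Cyp3a2, Ugt2b1, Cyp3a23-3a1, Efna1, Tjp1, Agtr1a and Cyp2c6v1) and 1 higher (Pebp1). All 9 kept their call against the mean when any single array was left out. Whether each also kept both pair calls was not followed gene by gene.

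**Figure D2:**
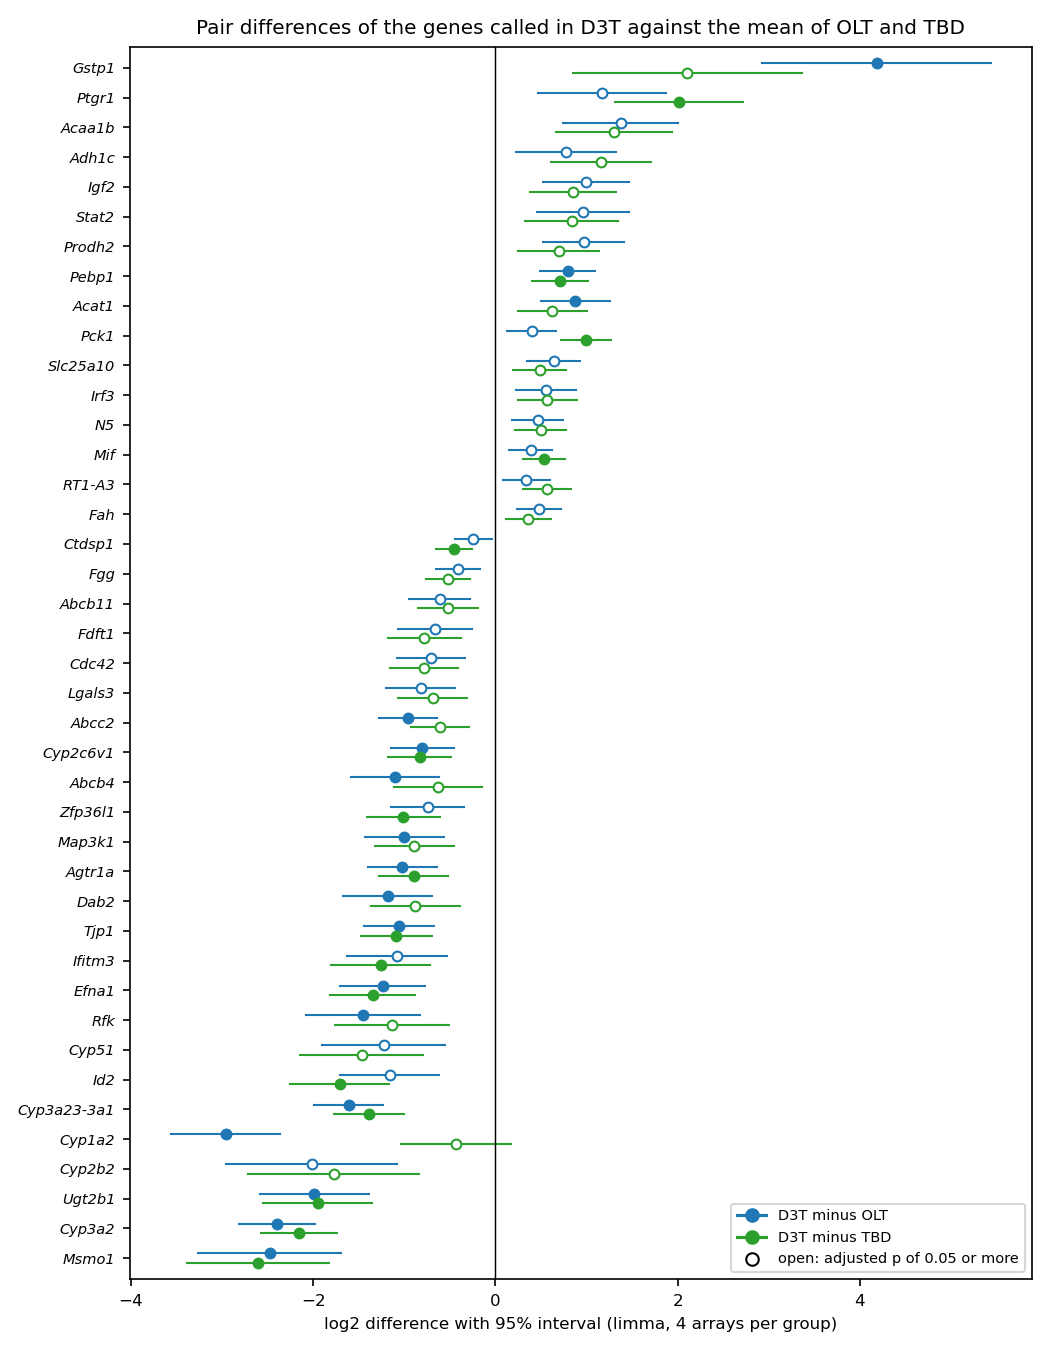
Differences of D3T from OLT (blue) and from TBD (green) for the 41 called genes, in log2 units with 95% intervals, 4 arrays per group. Filled points passed an adjusted p under 0.05 in that pair. Cyp1a2 is the gene whose 2 points lie furthest apart among those lower with D3T, and Gstp1 among those higher.

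Among the gene lists, that of PXR and CAR targets held the most members called lower with D3T. Of 20 tested members 6 were called lower and 0 higher, against 0.805% of all genes called lower. Of the 6, 4 stood apart from both compounds, against 9 of all 3104 genes. The median difference of the list was -0.25, against 0.06 over all genes. The 6 were Cyp3a2, Ugt2b1, Cyp2b2, Cyp3a23-3a1, Cyp2c6v1 and Abcc2. Short array probes can cross-hybridise between close members of the P450 and glucuronosyltransferase families, so the values of single members are uncertain. The list median lay between -0.33 and -0.13 when single arrays were left out.

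Cyp3a2, an abundant P450 of male rat liver, read 11.14, 11.41, 10.77 and 10.64 on the D3T arrays. It read 13.54, 13.30, 13.29 and 13.44 with OLT, 12.83, 12.89, 13.60 and 13.28 with TBD, and 13.35 to 13.95 with vehicle. All 4 D3T arrays lay below every other array. The difference from the mean of OLT and TBD was -2.28 ± 0.17 (SE), a 4.86-fold lower signal, with an adjusted p of 7.25e-06 in limma. D3T differed from OLT by -2.40 (95% interval -2.82 to -1.99) and from TBD by -2.16 (-2.57 to -1.74). TBD and OLT differed by -0.24 (-0.66 to 0.17), which did not pass. Against vehicle the differences were -2.62 with D3T (adjusted p 1.35e-06), -0.22 with OLT (0.665) and -0.46 with TBD (0.15), all sharing the same control arrays.

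Cyp3a23-3a1, an inducible P450 of the same family, read 10.95, 11.05, 10.25 and 11.05 with D3T. It read 12.64, 12.27, 12.33 and 12.51 with OLT and 12.27, 12.56, 12.03 and 11.98 with TBD. Vehicle arrays lay between, at 11.13 to 11.53, so no group with a substituted compound overlapped either vehicle or D3T. The difference was -1.50 ± 0.15 (adjusted p 1.35e-04), and all 4 of the gene's probe sets were called lower, at -1.75 to -1.01. Relative to vehicle the gene was 0.84 higher with TBD (adjusted p 0.00589) and 1.07 higher with OLT (0.0018), and with D3T it was lower at -0.54 (0.0461).

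Ugt2b1, which conjugates steroids and drugs to glucuronic acid, read 9.92, 9.22, 9.69 and 10.41 with D3T. The values were 12.10, 11.39, 11.75 and 11.95 with OLT and 11.30, 11.71, 11.85 and 12.19 with TBD, so the D3T arrays lay below all OLT and TBD arrays, which overlapped each other. The difference was -1.97 ± 0.24, 3.91-fold (adjusted p 7.18e-04), with -1.99 against OLT and -1.95 against TBD. All 3 compounds were above the vehicle mean of 8.86, by 0.95 with D3T (adjusted p 0.0278), 2.94 with OLT (2.44e-05) and 2.90 with TBD (2.85e-05). Of the 8 tested members of the glucuronosyltransferase list Ugt2b1 was the only one called, against 0.805% of all genes called lower, and 4 members lay on either side of 0.

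Cyp2b2, a P450 used as a marker of CAR activity, spread widely within the groups given substituted compounds. Its values were 10.04, 10.61, 10.14 and 10.42 with D3T, 13.45, 11.07, 12.70 and 12.06 with OLT, and 11.77, 11.91, 11.38 and 13.24 with TBD. The highest 2 values belonged to OLT replicate 1 and TBD replicate 4. The difference was -1.90 ± 0.38 (adjusted p 0.0201), and it was not called when D3T replicate 1, 3 or 4 was left out (adjusted p up to 0.0763, differences -2.10 to -1.70). Neither pair passed for this probe set, at -2.02 against OLT (-2.96 to -1.08) and -1.77 against TBD (-2.71 to -0.83). A second probe set of Cyp2b2 had means of 9.37 with D3T, 12.23 with OLT and 12.27 with TBD, and there the difference was -2.88 (adjusted p 0.00352) and both pairs passed. D3T was close to vehicle at the first probe set, by 0.35 (adjusted p 0.641), whereas OLT and TBD were 2.37 and 2.12 above it (0.00316 and 0.00535).

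Abcc2, an exporter of glucuronide and glutathione conjugates into bile, had means of 9.42 ± 0.21 with D3T, 10.38 ± 0.24 with OLT and 10.03 ± 0.21 with TBD (SD, n = 4 arrays each). The difference was -0.78 ± 0.13 (adjusted p 0.00558), and the pair with OLT passed (adjusted p 0.00771) whereas the pair with TBD did not (-0.61, interval -0.92 to -0.29). Cyp2c6v1, an abundant P450, had means of 12.55 ± 0.17, 13.35 ± 0.28 and 13.38 ± 0.24 with D3T, OLT and TBD, a difference of -0.82 ± 0.14 (adjusted p 0.00664). The other 14 tested members of the list were not called. Among them were Cyp2b15 at -1.01 (interval -1.62 to -0.41, adjusted p 0.0916), Alas1, the first enzyme of heme synthesis, at 1.10 (0.28 to 1.92, adjusted p 0.197), and the P450 reductase gene Por at 0.33 (adjusted p 0.526). Ephx1, the microsomal epoxide hydrolase, which is also an NRF2 target, had means of 12.95, 12.91 and 12.87 with D3T, OLT and TBD. Its difference was 0.06 with an interval of -0.28 to 0.41.

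**Figure D3:**
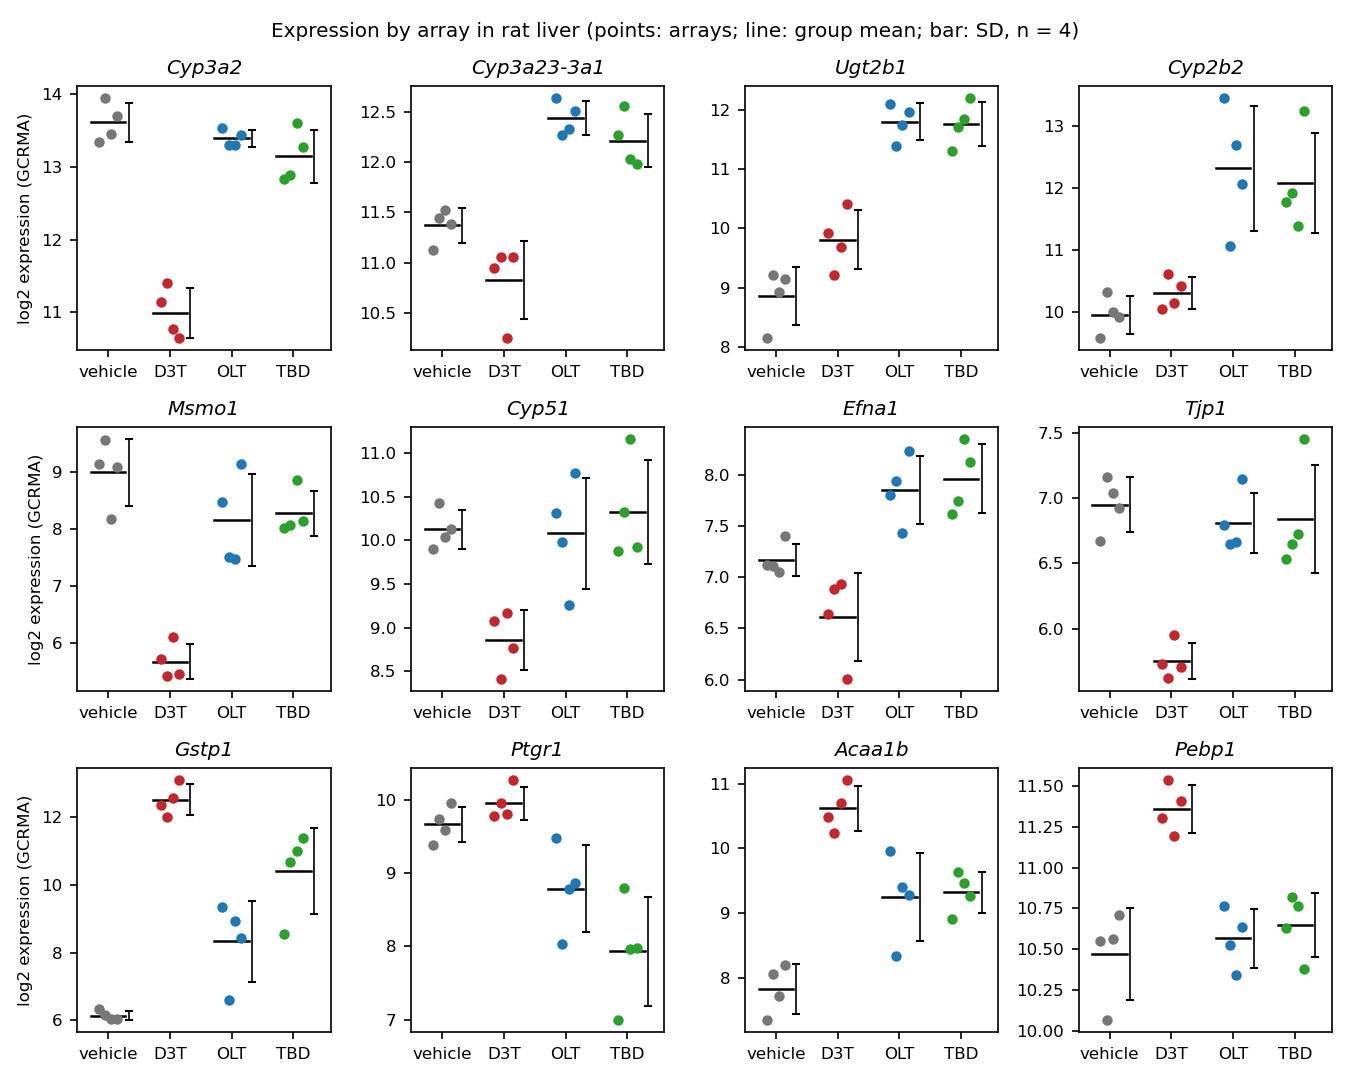
Log2 expression of 12 genes on each of the 16 arrays, 4 per group, with the group mean as a line and the SD as a bar, each panel with its own vertical axis. The 12 genes were chosen among called genes whose D3T arrays do not overlap the OLT and TBD arrays. Their separation therefore follows from the choice, with D3T below in the upper and middle rows (8 genes) and above in the lower row (4 genes). The wide spread of Cyp2b2 with OLT and TBD and of Gstp1 with OLT is visible.

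In cholesterol synthesis 3 of 14 tested genes were called lower with D3T (Msmo1, Cyp51 and Fdft1), 0 higher, and 11 were not called, against 0.805% of all genes called lower. Among all 14 the difference was negative at 12, with a median of -0.67, against 0.06 over all genes. The list median ranged from -0.80 to -0.58 when single arrays were left out, and the count called lower from 1 to 5, with 1 called without D3T replicate 2 and 5 without TBD replicate 4.

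Msmo1 encodes the methylsterol monooxygenase that removes methyl groups from the sterol ring. Its values were 5.72, 5.42, 6.10 and 5.45 with D3T, 8.48, 7.51, 7.47 and 9.14 with OLT, 8.02, 8.07, 8.87 and 8.15 with TBD, and 8.17 to 9.56 with vehicle. The D3T arrays lay apart from all 12 other arrays. The difference was -2.54 ± 0.32 (adjusted p 7.18e-04), with -2.48 against OLT (-3.26 to -1.70) and -2.60 against TBD (-3.39 to -1.82), and TBD and OLT differed by 0.13 (-0.66 to 0.91). The second Msmo1 probe set gave -1.96 (adjusted p 0.00558). Against vehicle Msmo1 stood at -3.32 with D3T (adjusted p 4.99e-05), -0.84 with OLT (0.174) and -0.72 with TBD (0.252).

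Cyp51, the lanosterol demethylase, which acts earlier in the pathway, read 9.07, 8.41, 9.17 and 8.76 with D3T, 10.31, 9.98, 9.26 and 10.77 with OLT, and 9.88, 10.32, 11.16 and 9.92 with TBD. The highest D3T array (9.17) and the lowest OLT array (9.26) nearly met. The difference was -1.35 ± 0.27 (adjusted p 0.0208), and neither pair passed. The call was lost without D3T replicate 2 or 4 (adjusted p up to 0.0882), and averaging its 5 probe sets gave -0.83, which was not called. All 5 probe sets were negative, at -1.39 to -0.46, and 2 were called. Fdft1, squalene synthase, had means of 8.55 with D3T, 9.21 with OLT and 9.33 with TBD, and a difference of -0.72 ± 0.16 (adjusted p 0.0415). That call was lost when any of 9 arrays was left out, all 4 D3T arrays among them (adjusted p up to 0.14). Its 4 probe sets all lay below 0, at -1.14 to -0.71, and 1 was called.

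The other cholesterol genes were not called, and the largest differences among them came close to the threshold. Insig1, which retains SREBP in the endoplasmic reticulum and is itself an SREBP target, had means of 11.07 with vehicle, 7.98 with D3T, 9.90 with OLT and 10.43 with TBD, and a difference of -2.19 ± 0.52 (interval -3.30 to -1.08, adjusted p 0.0502). Idi1, the isopentenyl diphosphate isomerase, stood at -1.09 (-1.71 to -0.47) and Dhcr7, the last reductase of the pathway, at -1.21 (-1.89 to -0.52), both with an adjusted p of 0.0805. The brightest Fdps probe set, for farnesyl diphosphate synthase, stood at -0.62 (adjusted p 0.225), whereas another Fdps probe set was called at -1.55 ± 0.35 (adjusted p 0.0415). Sqle, squalene epoxidase, was low with every compound, at 2.92 with D3T, 3.22 with OLT and 3.69 with TBD against 6.78 with vehicle. It lay below the array median on all 4 D3T arrays and 6 of the 8 OLT and TBD arrays, and its difference of -0.53 (-1.60 to 0.54) did not pass. Srebf1, whose product drives fatty acid synthesis, stood at 0.26 (-0.51 to 1.02, adjusted p 0.723). That value averages pair differences of opposite sign, 1.04 from OLT and -0.52 from TBD. The means were 6.33 with D3T, 5.29 with OLT and 6.86 with TBD. TBD and OLT differed by 1.56 (0.67 to 2.45), and none of the 3 pairs passed. Of 14 tested genes of fatty acid and triglyceride synthesis 0 were called, with 7 members on either side of 0.

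**Figure D4:**
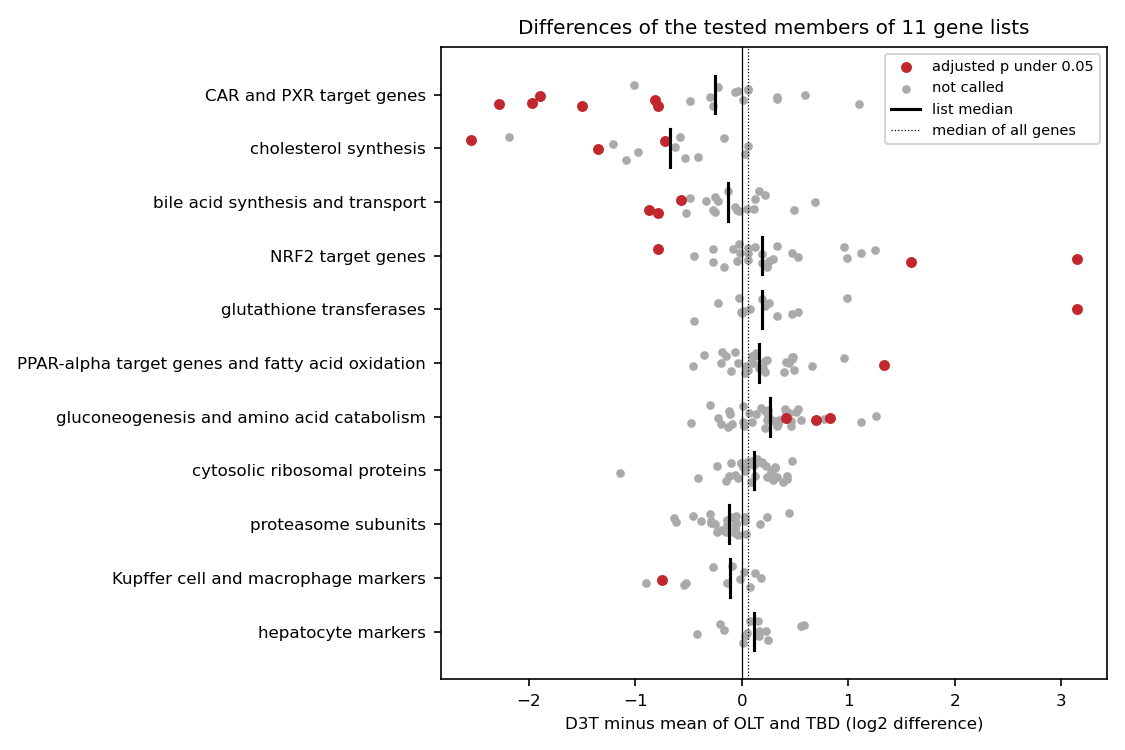
Differences of D3T from the mean of OLT and TBD (horizontal axis, log2) for the tested members of 11 gene lists, with called genes in red, the list median as a bar and the median over all genes as a dotted line. The 6 called members of the PXR and CAR list and the 3 of the cholesterol list all lie left of 0.

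Of 28 tested NRF2 targets 2 were called higher with D3T (Gstp1 and Ptgr1), 1 lower (Abcc2, already described), and 25 were not called, against 0.515% of all genes called higher and 0.805% lower. The difference was positive at 19 of the 28, with a median of 0.19 against 0.06 over all genes. The number called higher was 2 to 4 when single arrays were left out and 2 to 7 in the other settings.

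Gstp1, scarce in normal adult rat liver and a classic marker of altered hepatocyte foci, read 12.36, 12.02, 12.57 and 13.10 with D3T. Values with OLT were 9.36, 6.61, 8.92 and 8.43, values with TBD were 8.56, 10.69, 10.99 and 11.39, and vehicle arrays read 6.02 to 6.33. The D3T arrays lay above all others, and OLT replicate 2 was the compound array nearest to vehicle. The difference from the mean of OLT and TBD was 3.14 ± 0.51 (adjusted p 0.00483), and it lay between 2.84 and 3.32 when single arrays were left out. The pair with OLT passed, at 4.18 (2.93 to 5.44, adjusted p 0.00366). The pair with TBD did not pass, at 2.11 (0.85 to 3.36, adjusted p 0.188), nor did TBD against OLT at 2.08 (0.82 to 3.33, adjusted p 0.197). A second Gstp1 probe set was called at 5.51 ± 0.88, with means of 1.96 with vehicle, 10.38 with D3T, 3.47 with OLT and 6.27 with TBD, and its vehicle level lies in the range where the background correction shapes the value.

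Ptgr1, a reductase of prostaglandins and reactive alkenals, had a different course. Its values were 9.78, 9.96, 9.81 and 10.27 with D3T, 9.48, 8.03, 8.78 and 8.86 with OLT, 6.99, 8.80, 7.96 and 7.98 with TBD, and 9.38 to 9.96 with vehicle. The D3T arrays lay above all OLT and TBD arrays and overlapped the vehicle arrays. The difference was 1.59 ± 0.28, 3.02-fold (adjusted p 0.00924), with 2.02 against TBD (adjusted p 0.0107) and 1.16 against OLT (0.46 to 1.87, adjusted p 0.196). Against vehicle the values were 0.29 with D3T (adjusted p 0.602), -0.88 with OLT (0.108) and -1.73 with TBD (0.00298).

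Among the other NRF2 targets several had large differences that did not pass. Akr7a3, the aflatoxin aldehyde reductase, read 13.45, 12.79, 13.13 and 13.55 with D3T, 12.76, 11.01, 12.65 and 12.35 with OLT, 11.47, 12.01, 12.43 and 12.20 with TBD, and 8.37 to 8.56 with vehicle. Its D3T arrays lay above all 8 others, and the difference was 1.12 ± 0.28 (0.53 to 1.71, adjusted p 0.0573). Without OLT replicate 1 or OLT replicate 2 it was called. Nqo1, the quinone reductase, had means of 7.99 ± 0.47 with D3T, 6.53 ± 1.01 with OLT and 6.95 ± 1.79 with TBD, and a difference of 1.25 with an interval from -0.03 to 2.53. TBD replicate 1 read 4.53 for Nqo1, within the vehicle range of 4.02 to 4.77, whereas TBD replicate 4 read 8.79, above every D3T array. Gsta3, an alpha-class glutathione transferase, rose from 3.20 with vehicle to 11.50 with D3T, 10.28 with OLT and 10.74 with TBD. All 4 vehicle arrays lay below their array median there, so the size of the rise depends on the background correction. The difference of Gsta3 between compounds was 0.99 (0.16 to 1.82, adjusted p 0.252), and its 3 probe sets, 0 of them called, gave 0.14 to 1.25. Gsr, glutathione reductase, stood at 0.96 (0.31 to 1.62, adjusted p 0.148).

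Further NRF2 targets were not called, and the intervals of Gclc, Gclm, Txnrd1 and Hmox1 held 0. The catalytic and modifier subunits of glutamate-cysteine ligase, which makes the precursor of glutathione, stood at 0.47 (Gclc, -0.51 to 1.45) and 0.30 (Gclm, -0.25 to 0.85). Txnrd1, thioredoxin reductase, stood at -0.08 (-0.91 to 0.74) and Hmox1, heme oxygenase, at -0.27 (-0.95 to 0.42). Hmox1 read 5.88 on TBD replicate 4 and 3.59 to 3.84 on every other array, just above the array medians of 3.27 to 3.58. Its difference therefore rests largely on 1 array. The mu-class transferases Gstm1 and Gstm2 stood at 0.19 and 0.26 (adjusted p 0.396 and 0.271). Nfe2l2, the gene for NRF2 itself, had means of 5.96 with D3T, 7.01 with OLT and 6.71 with TBD (-0.89, -1.48 to -0.31, adjusted p 0.126). Of 15 tested glutathione transferases Gstp1 was the only one called, against 0.515% of all genes called higher, and their median was 0.19. Gstp1 belongs to both lists.

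**Figure D5:**
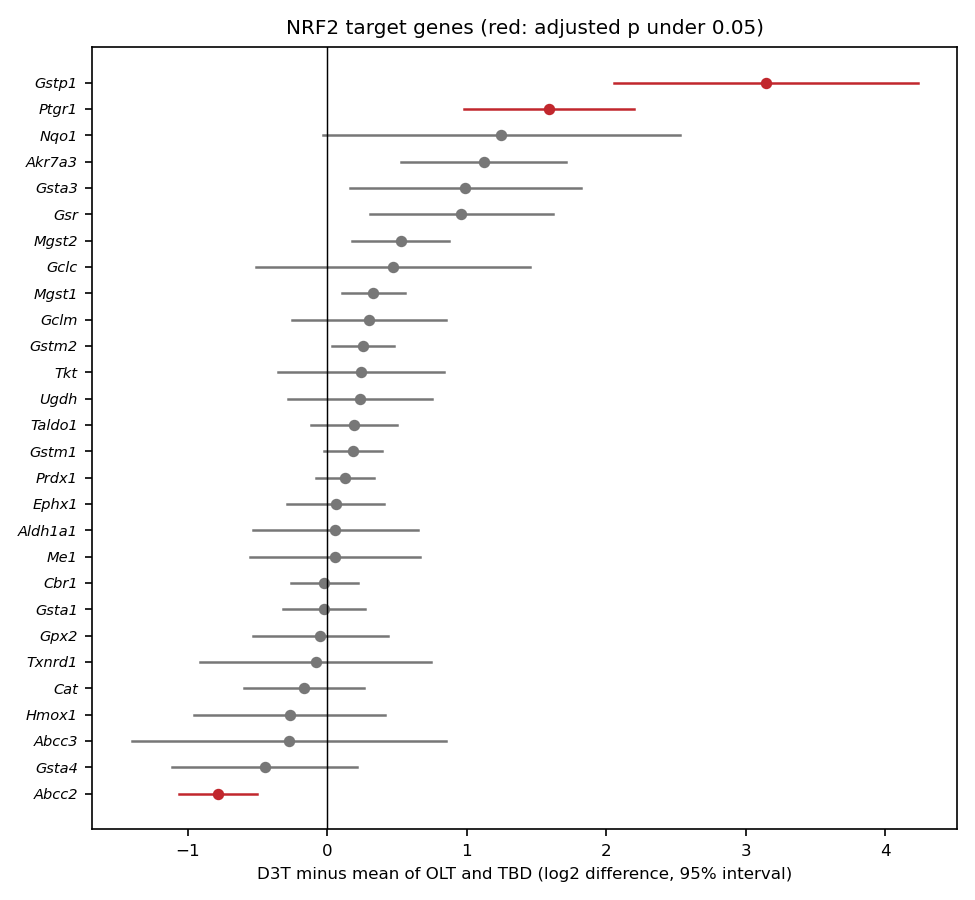
Difference of D3T from the mean of OLT and TBD (log2, with 95% intervals) for the 28 tested NRF2 targets in order of size, with called genes in red. Gstp1 (3.14) and Ptgr1 (1.59) are called at the top and Abcc2 (-0.78) at the bottom, and the intervals of Nqo1, Gclc and Txnrd1 span 0.

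Cyp1a2, an aromatic amine oxidising P450 and target of the aryl hydrocarbon receptor, was called lower with D3T but did not separate D3T from both compounds. Its values were 9.03, 9.58, 9.42 and 8.11 with D3T, 12.11, 11.77, 12.29 and 11.80 with OLT, and 9.31, 9.36, 9.36 and 9.84 with TBD, so the D3T and TBD arrays overlapped and the OLT arrays stood above both. D3T differed from OLT by -2.96 (-3.56 to -2.36, adjusted p 1.20e-04), and TBD differed from OLT by -2.53 (-3.13 to -1.93, adjusted p 3.97e-04). D3T and TBD differed by -0.43 (-1.03 to 0.17), which did not pass. Against the vehicle mean of 11.23 the values were -2.20 with D3T (adjusted p 1.55e-04), 0.77 with OLT (0.0997) and -1.76 with TBD (9.69e-04). The contrast of D3T against the mean of both, -1.70 ± 0.24, was called at all 3 Cyp1a2 probe sets. Cyp1a2 was the only 1 of the 3104 genes at which TBD and OLT differed, and 86 genes had an unadjusted p under 0.05 in that pair. Of the 3 tested aryl hydrocarbon receptor targets, the other 2, Nqo1 and Cyp1b1, were not called. Over all genes 0.805% were called lower.

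Outside these groups, Efna1, a membrane-bound ligand of Eph receptors, was lower with D3T, at 6.64, 6.88, 6.93 and 6.00 against 7.43 to 8.23 with OLT and 7.62 to 8.35 with TBD. Its difference was -1.29 ± 0.19 (adjusted p 0.00266), although its dimmer probe set, at -1.41, was not called (adjusted p 0.0836). Tjp1, the tight junction scaffold ZO-1, read 5.73, 5.62, 5.95 and 5.71 with D3T, below 6.64 to 7.14 with OLT, 6.53 to 7.45 with TBD and 6.67 to 7.16 with vehicle. Its difference was -1.07 ± 0.16 (adjusted p 0.00266), and D3T was the only group called against vehicle, with an adjusted p of 5.01e-04. For both genes the D3T arrays lay below every other array, and for Tjp1 the other groups overlapped one another.

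Agtr1a, the angiotensin II receptor, read 7.95, 7.80, 8.04 and 8.31 with D3T, against 8.88 to 9.36 with OLT and 8.70 to 9.30 with TBD. Its difference was -0.96 ± 0.15 (adjusted p 0.00447), and 2 of its 4 probe sets were called, all 4 being negative. Id2, an inhibitor of basic helix-loop-helix factors, read 7.80 to 8.07 with D3T, 8.58 to 9.76 with OLT and 9.15 to 10.49 with TBD, a difference of -1.44 ± 0.22 (adjusted p 0.00373), and the pair with TBD passed (adjusted p 0.00547). Zfp36l1, which promotes the decay of AU-rich mRNAs, stood at -0.88 ± 0.16 (adjusted p 0.0119). Agtr1a, Zfp36l1 and Cyp2c6v1 were picked out with their values known, as were the other called genes outside the naming rule (Map3k1, Cdc42, Ctdsp1, RT1-A3, N5 and Stat2). Acat1 met the rule only through its likeness to Gstp1.

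On the higher side, Pebp1, which encodes a Raf kinase inhibitor, was the only gene called higher in the contrast and in both pairs. It read 11.30, 11.54, 11.19 and 11.41 with D3T, 10.34 to 10.76 with OLT, 10.38 to 10.82 with TBD and 10.06 to 10.71 with vehicle, and the D3T arrays overlapped no other group. The difference was 0.75 ± 0.12, 1.68-fold (adjusted p 0.0055), with 0.79 against OLT and 0.71 against TBD. A second Pebp1 probe set was positive at 0.37 and not called. Pck1, the key enzyme of gluconeogenesis, was 0.70 ± 0.11 higher with D3T (adjusted p 0.00416). Its means were 12.21 with D3T, 11.81 with OLT, 11.21 with TBD and 12.20 with vehicle, the pair with TBD passed at 0.99 (adjusted p 0.00142), and the pair with OLT did not (0.40, 0.13 to 0.67).

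Of 43 tested genes of gluconeogenesis and amino acid catabolism, 3 were called higher with D3T (Pck1, Prodh2 and Fah) and 0 lower, against 0.515% of all genes called higher. The difference was positive at 35 of the 43, with a median of 0.26 against 0.06 over all genes. Prodh2, hydroxyproline dehydrogenase, had means of 8.92 with D3T, 7.95 with OLT and 8.23 with TBD, a difference of 0.83 ± 0.18 (adjusted p 0.0308). It was not called without D3T replicate 1, 2 or 3 or TBD replicate 1 (adjusted p up to 0.113). Fah, the last enzyme of tyrosine breakdown, stood at 0.42 ± 0.10 (adjusted p 0.049), a call lost when any of 12 arrays was left out. The number of members called higher was 1 to 4 across the left-out arrays, and it was 1 without D3T replicate 1, 2 or 3. Sds, serine dehydratase, stood at 1.26 (adjusted p 0.12) at its brightest probe set, whereas a dimmer one had means of 7.39 with D3T, 3.95 with OLT, 5.83 with TBD and 7.33 with vehicle and was called at 2.50 ± 0.43 (adjusted p 0.00664).

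Acaa1b, a peroxisomal thiolase and PPAR-alpha target, read 10.49, 10.23, 10.71 and 11.05 with D3T, 9.96, 8.33, 9.40 and 9.28 with OLT, 8.91, 9.63, 9.47 and 9.27 with TBD, and 7.34 to 8.19 with vehicle. The D3T arrays lay above all others, at 1.34 ± 0.26 over the mean of OLT and TBD (adjusted p 0.0153), although neither pair passed and the call was lost without D3T replicate 3 or 4 (adjusted p up to 0.0623). It was the only member called among 33 tested PPAR-alpha targets and genes of fatty acid oxidation, whose median was 0.17. Over all genes 0.515% were called higher. Mif, a cytokine with tautomerase activity, read 11.52 to 11.67 with D3T, 11.10 to 11.39 with OLT, 10.74 to 11.33 with TBD and 9.46 to 9.62 with vehicle. All 3 compounds were above vehicle, and the difference between compounds was 0.46 ± 0.09 (adjusted p 0.0222), lost without any 1 of the 4 D3T arrays (adjusted p up to 0.0826).

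Igf2, a fetal growth factor, stood at 0.92 ± 0.19 (adjusted p 0.0225), with means of 6.78 with D3T, 5.78 with OLT, 5.92 with TBD and 5.41 with vehicle, and was not called without D3T replicate 1, 2 or 3 (adjusted p up to 0.101). Slc25a10, the mitochondrial dicarboxylate carrier, stood at 0.56 ± 0.12 (adjusted p 0.0237), lost without any 1 of the 4 D3T arrays (adjusted p up to 0.0991), and its dimmest probe set stood at -0.07. Acat1, the mitochondrial acetoacetyl-CoA thiolase, stood at 0.75 ± 0.15 (adjusted p 0.0222), lost without D3T replicate 2, 3 or 4 (adjusted p up to 0.0883). Adh1c, an alcohol dehydrogenase, stood at 0.97 ± 0.22 and Irf3, a transcription factor of antiviral defence, at 0.56 ± 0.13 (adjusted p 0.0455 and 0.049), and these calls were lost when any of 11 or 13 arrays was left out. Stat2 (0.90), N5 (0.48) and RT1-A3 (0.45) had adjusted p between 0.0453 and 0.0493 and were likewise lost without any of 11, 14 and 12 arrays.

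The remaining called genes lower with D3T were of mixed function. Rfk, riboflavin kinase, read 6.14 to 6.89 with D3T, 7.44 to 8.28 with OLT, 7.42 to 7.93 with TBD and 4.28 to 5.85 with vehicle, so every compound was above vehicle and D3T least so. Its difference was -1.29 ± 0.25 (adjusted p 0.0163), lost without D3T replicate 2, 3 or 4 (adjusted p up to 0.0623). Ifitm3, an interferon-induced membrane protein, stood at -1.17 ± 0.22 and Dab2, an endocytic adaptor, at -1.03 ± 0.20 (adjusted p 0.0141 and 0.0153), each lost without D3T replicate 1 or 3 (adjusted p up to 0.0604 and 0.0663). Map3k1 stood at -0.94 (lost without D3T replicate 2, adjusted p 0.0568) and Cdc42, a small GTPase, at -0.74 (lost without D3T replicate 1, 2 or 3, adjusted p up to 0.0883), and 1 of the 4 Cdc42 probe sets was at 0.02. Fgg, the fibrinogen gamma chain, stood at -0.47 ± 0.10 (adjusted p 0.0275), lost without any 1 of the 4 D3T arrays or OLT replicate 4. It was the only called gene among 37 tested genes of the acute phase and complement, against 0.805% of all genes called lower. Ctdsp1, a phosphatase of RNA polymerase, had a small difference of -0.35 (adjusted p 0.0457), lost without any of 13 arrays.

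The canalicular exporters were the called members of the bile acid list, with 3 of 21 tested called lower (0.805% of all genes were), 0 higher and a median of -0.13. Besides Abcc2 these were Abcb4, the phospholipid flippase, at -0.87 ± 0.20 (adjusted p 0.0409), and Abcb11, the bile salt export pump, at -0.57 ± 0.13 (adjusted p 0.0498). The number called lower was 1 without D3T replicate 1, 2 or 4, OLT replicate 2 or 4, TBD replicate 3 or 4, or vehicle replicate 2, 3 or 4. The Abcb4 call was lost without any of 13 arrays (adjusted p up to 0.154), that of Abcb11 without any of 12 (up to 0.178), and the D3T arrays of both overlapped the others. Cyp7a1, which controls the rate of bile acid synthesis, had a wide spread, from 4.99 to 8.44 with OLT and from 4.37 to 6.69 with TBD, and its difference was -0.03 (-1.21 to 1.15). Zfp354a, a zinc finger repressor, had means of 9.08 with vehicle, 6.74 with D3T, 5.51 with OLT and 4.03 with TBD, and a difference of 1.97 (0.84 to 3.10, adjusted p 0.0805), and it was called without OLT replicate 1.

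By a naming rule based on the pattern over the 12 compound arrays, the genes most like Gstp1 were Rpsa, Acat1, Rplp0 and Ptov1, with Pearson coefficients of 0.932, 0.928, 0.919 and 0.907. The 12 arrays fall into 3 compound groups, so these coefficients are a description. Of the 4, Acat1 was called, and Rpsa, Rplp0 and Ptov1 stood at 0.39, 0.48 and 0.47 (adjusted p 0.0799, 0.0622 and 0.0502).

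Of the markers of other cell types 1 was called, and several uncalled ones were lower in value with D3T. Over all genes 0.515% were called higher and 0.805% lower, so few calls are awaited in lists of this size. All 14 tested hepatocyte markers were not called, and their mean level per array was 12.6 to 12.8 with D3T, 12.4 to 12.6 with OLT and 12.5 to 12.7 with TBD. Of 12 tested Kupffer cell and macrophage markers 1 was called, Lgals3, galectin-3, lower at -0.75 ± 0.15 (adjusted p 0.0211, lost without D3T replicate 1 or 4, adjusted p up to 0.0987). The list median was -0.11, and the mean level per array was 6.54 to 6.72 with D3T, 6.64 to 7.12 with OLT and 6.57 to 7.26 with TBD, against 7.27 to 7.6 with vehicle. The difference was negative at 8 of the 12, from -0.90 at Fcgr2b (adjusted p 0.12) through -0.54 at Lyz2 and -0.52 at Ctss to -0.13 at C1qb, whereas Clec4f, a defining Kupffer cell marker, stood at 0.08 and the highest, Aif1, at 0.18. Of the 15 tested stellate cell and fibroblast markers 0 were called. Their mean level per array was 5.20 to 5.30 with D3T and 5.33 to 5.73 with OLT and TBD, so those ranges did not overlap. The median difference of the list was nevertheless -0.01, with 6 members positive, 9 negative and the lowest at -1.51. The mean level therefore does not describe the list as a whole. The part of other cell types in the genes called lower was not tested. Both red blood cell markers tested were negative and not called, Hbb at -0.65 and Hbb-b1 at -0.90 (adjusted p 0.147 and 0.128), and their summed level was 20.57 to 22.09 with D3T, 22.41 to 22.78 with OLT and 21.88 to 24.54 with TBD. The 6 endothelial markers had a median of -0.26, with 4 negative and 2 positive, from Lyve1 at -0.93 (adjusted p 0.1) to 0.08. Their summed level was 30.1 to 33.38 with D3T, 32.93 to 36.48 with OLT and 31.32 to 35.07 with TBD. Of the 6 endothelial, 6 cholangiocyte, 6 lymphocyte, 1 neutrophil, 2 red blood cell, 12 MHC and 8 other-organ genes tested, 0 were called. The lists of 37 ribosomal protein genes, 28 proteasome genes and 44 respiratory chain genes also had 0 called members, with medians of 0.11, -0.12 and 0.09.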

How the data were processed

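The values were deposited by the authors as log2 expression per probe set and per the submitters' processing notes come from GCRMA, with no version named. GCRMA corrects background by probe sequence, quantile-normalizes and summarises probes, so low values depend on that correction. They ran from -1.21 to 15.9. No counts underlie them, and the number of arrays limits the precision. Groups came from the labels. Gene symbols came from the platform annotation, updated through Entrez IDs: 7006 probe sets had 1 symbol, 308 several (not named) and 1426 none.

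Testing was limited to probe sets above their array's 40th percentile on 4 or more arrays. limma 3.58.1 (R 4.3.3) was fitted to all 16 arrays with 4 group means, and contrasts were tested two-sided with Benjamini-Hochberg adjustment, over the 3 pairs together for pairs. A gene was represented by its brightest tested probe set. The script was tested on simulated data.

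Named genes were, among called genes whose D3T arrays did not overlap the others, up to 12 highest (10 met this) and the 12 lowest, plus 18 fixed genes, up to 3 called members per list, up to 5 called genes at which TBD and OLT also differed, and 4 nearest Gstp1. The comparison, genes and lists were chosen with earlier results of these data known. Promoters were searched with Python 3.11.15 and Biopython 1.88. Alternatives covered filters, normalization, priors, weights, thresholds, a replicate block and each array left out.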

Additional observations from a re-analysis of the deposited data

Results flagged for a closer look

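In groups of 4, a value far from the other 3 by Dixon's criterion occurred 12 times in 212 groups examined, and chance gives about 1 in 20. TBD replicate 4 held 5 of the 12 and D3T replicate 3 held 3.

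In TBD replicate 4, Hmox1 read 5.883 against 3.588 to 3.642 on the other 3 arrays, Cyp1a2 9.836 against 9.305 to 9.362, and Sqle 5.897 against 2.902 to 2.998. Srebf1 read 6.244 against 6.996 to 7.103 there, and Zfp354a 3.408 against 4.194 to 4.303. In D3T replicate 3, Cyp3a23-3a1 read 10.25 against 10.95 to 11.05, Nqo1 7.293 against 8.133 to 8.291, and Map3k1 8.147 against 7.609 to 7.692. The others were Id2 in D3T replicate 2 (7.804 against 8.034 to 8.067), Msmo1 in TBD replicate 3 (8.868 against 8.022 to 8.147), Sqle in OLT replicate 1 (3.69 against 3.022 to 3.117) and Cyp2c6v1 in vehicle replicate 3 (13.34 against 12.83 to 12.9).

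Cyp1a2 differed between the substituted compounds themselves, by -2.531 for TBD minus OLT (adjusted p 3.97e-04, limma, n = 4 arrays each).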

How the results depend on the processing

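All 41 called genes kept their sign in the 33 alternatives run, and 11 kept their call in each. In settings that alter only the filter, prior, threshold or vehicle arrays, the difference itself stays the same, so the sign could not change. The same holds for the fit to the compound arrays alone and for the replicate block. The genes were also picked as called in these same values, so keeping the sign is weak evidence of stability. Against the 85 probe sets called for D3T minus the mean of OLT and TBD, the total called was 48 from the 12 compound arrays alone (47 of them among the 85), 34 at an adjusted p under 0.01, 27 against a 1.2-fold minimum (limma's treat), 361 with the 40th percentile as covariate and 361 with array weights, and 48 to 97 with single arrays left out. In the same order the genes numbered 24, 15, 11, 180, 196 and 23 to 50, with 65 after renewed quantile normalization and 64 without OLT replicate 1 and TBD replicate 4. D3T against OLT gave 26, 18, 19, 77, 120 and 21 to 56, with 68 and 69 in the last 2 settings and 24 after centring array medians. D3T against TBD gave 9 at 0.01, 11 against the minimum fold, 61, 107, 13 after centring and 15 to 29. Apart from both gave 6, 7, 41, 57, 8 and 8 to 17. TBD against OLT gave 7 with the covariate, 7 with weights, 10 without the 2 arrays, and 3 to 13. With the replicate number as a block 60 probe sets and 31 genes were called. The deviations of same-numbered arrays from their group means correlated at r -0.524 to 0.323, with 8 of 24 pairs over 0.1. These values show no steady pairing by number, and a day or batch shared by number was not tested.

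Uncalled differences near 0 changed sign: Cyp7a1 (0.202 covariate, 0.158 weights, 0.114 mean of probe sets, 0.0348 quantile, 0.313 without the 2 arrays, -0.301 to 0.275 left out), Txnrd1 (0.0881, 0.0303, 0.093, 0.278 without the 2 arrays, -0.386 to 0.17), Ephx1 (-0.0122 centring, -0.0311 to 0.16), Gclm (-0.0263 mean of probe sets) and Hmox1 (0.012 without the 2 arrays, -0.367 to 0.0151). A stricter threshold lowers the counts by construction, and for the others the cause was not tested.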
